A study of Rattus norvegicus with 30 samples.

Results

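Translation initiation and elongation factors are the 60 rat genes on the array whose symbol starts with Eif or Eef followed by a digit, among 14217 genes with a probeset of their own. They had 93 probesets with a single gene symbol, of which 88 passed the filter on low signal, and all 60 genes kept at least 1 tested probeset. Choosing by symbol also brought in Eif4a3, an exon junction helicase, 4 kinases of eIF2, the 4E-binding proteins and 3 methyltransferases of elongation factor 1A. Another such gene was Eef1e1, for a scaffold protein of the aminoacyl-tRNA synthetase complex. The cells were primary hepatocytes of male Sprague Dawley rats, bought frozen, plated on collagen under a Matrigel overlay and dosed on the third day of culture. They received 10 mM sodium valproate, 0.5 mM sodium valproate or water, the vehicle, and were harvested after 24 h or 48 h, with 5 cultures in each of the 6 groups and 1 array per culture. Valproate is an antiepileptic drug that also inhibits histone deacetylases. The labels do not say how many rats gave the cells, so a p-value reflects how much the cultures of a group varied, and the number of arrays limits the precision.

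Translation of an mRNA starts when eIF2 brings the initiator tRNA to the small ribosomal subunit, which also carries eIF1, eIF1A, eIF3 and eIF5, while eIF4F binds the cap. Within eIF4F, eIF4E holds the cap, eIF4A unwinds the mRNA and eIF4G is the scaffold. The 4E-binding proteins keep eIF4E from eIF4G, and kinases that phosphorylate the alpha subunit of eIF2 block its exchange factor eIF2B. Elongation then runs on eEF1A, which delivers aminoacyl-tRNAs and is recharged by the eEF1B subunits, on eEF2, which moves the ribosome, and on eIF5A, which helps peptide bonds form at difficult sequences.

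Promoter sequence was at hand for 55 of the 60 genes in the RefSeq table of the GRCr8 assembly, which was used for sequence only. The 250 bases before the annotated start site were searched on both strands. The E-box CACGTG, the site that MYC, MITF and USF proteins bind, stood in 11 of 55 members (20%), against 1591 of 27457 promoters in the table (5.79%) and 805 of 9666 genes measured on the array (8.33%). The median GC content of these windows was 59.6% for the members and 60.0% for the genes on the array. The other motifs were about as frequent as on the array, or rarer. The cyclic AMP element TGACGTCA stood in 1 member (1.82%, against 2.85% of array genes), the pattern TGATGNAAN of ATF4 and CHOP binding in 1 (1.82%, against 1.91%) and CCAAT in 14 (25.5%, against 35.7%). A start site at a C followed by at least 4 pyrimidines, the shape of a terminal oligopyrimidine tract, was found for Eif2a alone (1.82%, against 2.64%). This search read only from the exact annotated start base and would miss a tract that begins a base away. A gene without a match may therefore still have such a tract. A match describes the letters in the window and shows no bound factor.

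The 100 bases before the start site are shown for the pair of members that rose most and the pair that fell most at 10 mM and 24 h, on the gene's strand, with an E-box in capitals. They come from chr2:113657734-113657833 (plus strand, Eif5a2), chr8:129081058-129081157 (plus strand, Eif1b), chr18:28540224-28540323 (plus strand, Eif4ebp3) and chr11:93746368-93746467 (minus strand, Eif4g1).
Eif5a2: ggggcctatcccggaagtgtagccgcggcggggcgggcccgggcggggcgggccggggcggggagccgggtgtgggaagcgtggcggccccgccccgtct
Eif1b: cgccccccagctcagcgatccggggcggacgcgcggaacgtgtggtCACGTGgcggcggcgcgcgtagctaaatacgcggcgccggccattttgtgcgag
Eif4ebp3: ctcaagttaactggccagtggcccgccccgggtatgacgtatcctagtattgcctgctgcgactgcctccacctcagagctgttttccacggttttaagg
Eif4g1: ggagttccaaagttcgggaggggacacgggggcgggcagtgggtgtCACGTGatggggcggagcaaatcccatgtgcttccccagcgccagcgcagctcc
Eif1b and Eif4g1 both had an E-box that began 54 bases before the start site, and Eif1b rose with 10 mM while Eif4g1 fell. Eif4ebp3 had none of the motifs in these 100 bases.

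E-boxes of further members are shown in 30-base windows because members that rose and members that fell both carried them, again with CACGTG in capitals. Eif5a2 and Eif4e had 2 each in the region searched. The windows are chr2:113657626-113657655 and chr2:113657651-113657680 (plus strand, Eif5a2), chr2:229740504-229740533 and chr2:229740661-229740690 (plus strand, Eif4e), chr1:172368991-172369020 (plus strand, Eif3f), chr12:19334808-19334837 (minus strand, Eif3b), chr10:55143410-55143439 (minus strand, Eif5a) and chr7:9189297-9189326 (minus strand, Eef2).
Eif5a2, far: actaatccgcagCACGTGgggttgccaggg
Eif5a2, near: cagggcgagcttCACGTGactgggcgggac
Eif4e, far: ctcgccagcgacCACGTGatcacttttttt
Eif4e, near: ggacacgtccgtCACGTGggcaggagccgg
Eif3f: caagatatgggtCACGTGgtacaaatttag
Eif3b: actcgctgcacgCACGTGgctccgcgctag
Eif5a: aaggggcggggtCACGTGtgtgcgtcattg
Eef2: cacccgcgccgtCACGTGacgtgcccaacc
Among the 11 members with an E-box, 4 were higher with 10 mM than in water at 24 h (Eif5a2, Eif1b, Eif4e and Eif3f) and 4 were lower (Eif4g1, Eif3b, Eif5a and Eef2). In that comparison 31.1% of all genes were called higher and 25% lower. Eef1akmt4, Eef2k and Eif4h were not called there on the probesets that stand for them. At 10 mM and 48 h, 4 of the 11 were higher and 2 lower (27.6% and 22.3% of all genes). With 0.5 mM, 3 were higher and 4 lower at 24 h (12.7% and 16.1% of all genes). At 48 h the 0.5 mM counts were 0 and 3 (11.9% and 14.1%).

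The hepatocyte label was set against marker genes. Of 8 hepatocyte markers 7 were measured. None of them was at 0 on every array, which was also so for the lists of other cells. The summed signal of the hepatocyte markers ran from 295117 to 348893 in the 10 mM cultures, against 366573 to 471861 in water cultures at 24 h. Of the lists for other liver cells, those of Kupffer and stellate cells lay wholly below water with 10 mM at both times. At 24 h the 8 Kupffer cell markers summed to 2082 to 2584 with 10 mM, against 3178 to 4167 in water, and the 7 stellate cell markers to 2568 to 2988, against 3556 to 4048. At 48 h the same ranges were 340591 to 382372 against 356570 to 409424 for hepatocytes, 1746 to 2428 against 2638 to 3040 for Kupffer cells and 2596 to 3112 against 3682 to 4321 for stellate cells. The 4 cholangiocyte markers summed to 4851 to 6518 with 10 mM, against 10428 to 12110 in water at 48 h, and to 6243 to 7091 against 7047 to 8606 at 24 h. The 6 endothelial markers overlapped at both times, with 962 to 1395 against 1248 to 2141 at 24 h. In RNA of whole cultures, fewer cells of a type and less RNA per cell cannot be told apart, and the part of these shifts in the results was not tested. RNA quality was uneven as well. The control probesets of beta-actin gave a log2 ratio of 3' over 5' signal, larger in broken RNA, that was above 2 on 3 arrays, at 2.76 on water replicate 3 at 24 h and at 2.76 and 2.22 on 0.5 mM replicates 3 and 4 at 48 h. The other arrays lay between 1.05 and 1.74.

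The first question was how many of the factors changed at each dose and time. With 10 mM at 24 h, 15 of 60 members were higher and 24 were lower than in water, where the test called 31.1% of all genes higher and 25% lower. At 48 h the counts with 10 mM were 14 higher and 22 lower, against 27.6% and 22.3% of all genes. With 0.5 mM, 6 were higher and 23 lower at 24 h (12.7% and 16.1% of all genes), and 4 were higher and 25 lower at 48 h (11.9% and 14.1% of all genes). A call is an adjusted p under 0.05 in limma with Benjamini-Hochberg adjustment over all tested probesets, and every change below is a difference in log2(signal + 16) ± the fitted standard error, from 5 cultures in each group. The median change over the 60 members was -0.08 at 10 mM and 24 h (0.07 over all genes), -0.04 at 10 mM and 48 h (0.03), -0.15 at 0.5 mM and 24 h (0.02) and -0.19 at 0.5 mM and 48 h (-0.01). The members' changes had a smaller median standard error than those of all genes, 0.083 against 0.132, so that smaller changes could be called.

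**Figure D1:**
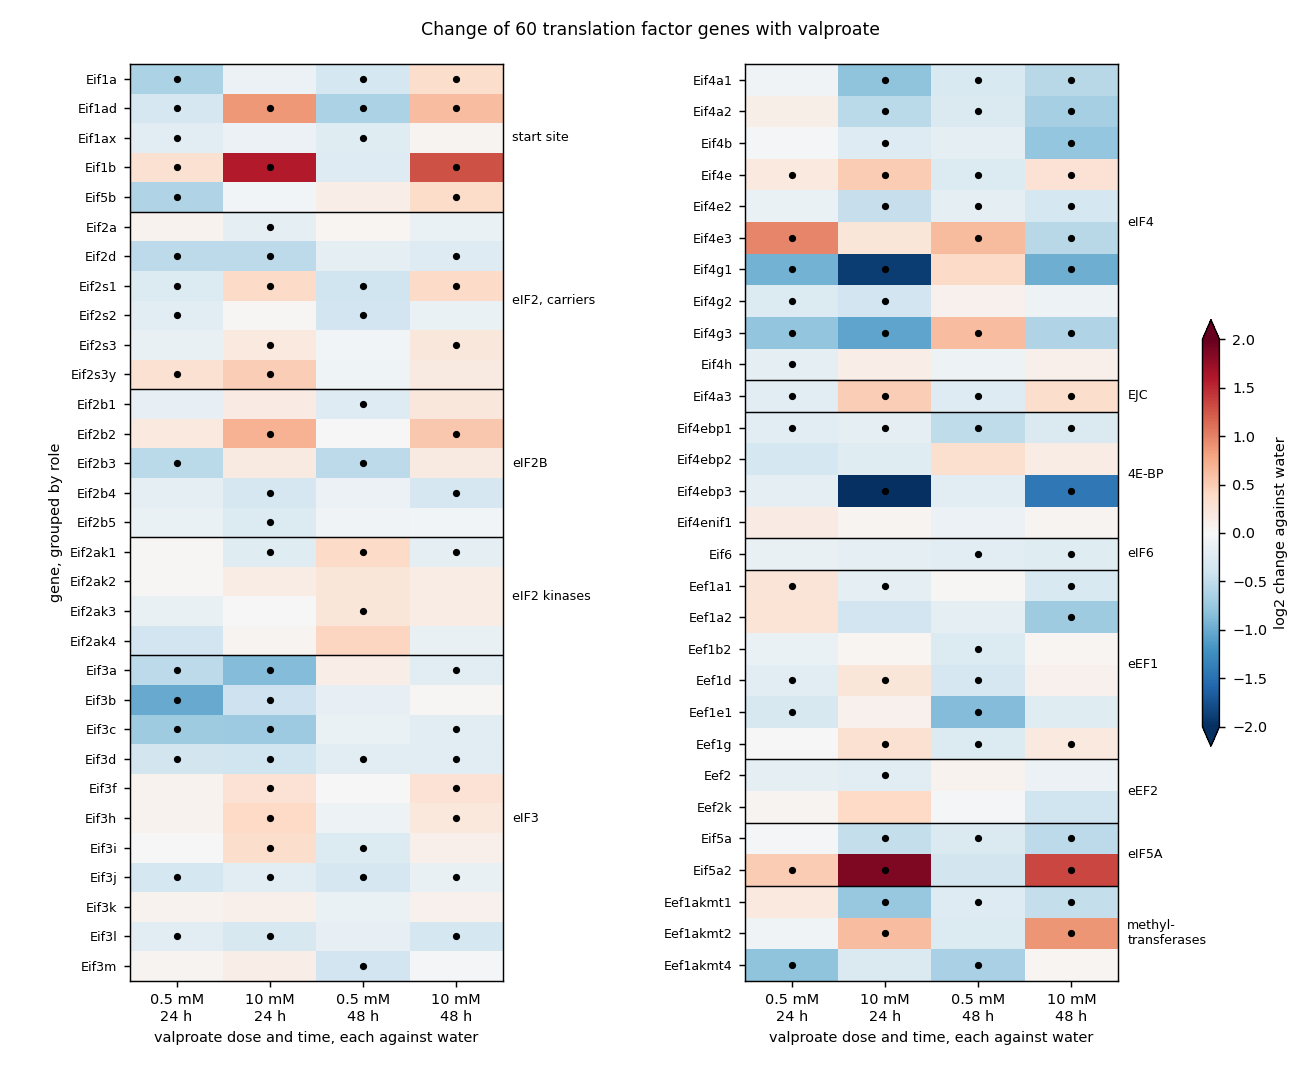
Log2 change (colour) of the 60 members, grouped by role down the page, for 0.5 mM and 10 mM valproate against water at 24 h and at 48 h, with a dot where the adjusted p was under 0.05. Of the 60 members 24 were lower with 10 mM at 24 h and 25 with 0.5 mM at 48 h, and the eIF4 group held 7 of the 24.

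Members were also counted when their 5 treated and 5 water signals did not overlap. With 10 mM at 24 h, 11 members lay wholly above water and 20 wholly below (25.3% and 20.3% of all genes). At 48 h these were 12 and 20 (23.9% and 18.4%). With 0.5 mM there were 3 above and 20 below at 24 h (8.89% and 11% of all genes) and 2 above and 18 below at 48 h (6.92% and 8.17%). Across the times, 12 members were higher with 10 mM at both, which is 80% of those higher at 24 h and 85.7% of those higher at 48 h, and 19 were lower at both (79.2% and 86.4%). Over all genes the shares were 70.9% and 80% for higher genes and 71.2% and 79.9% for lower ones. With 0.5 mM, 13 members were lower at both times (56.5% and 52%, against 30.1% and 34.5% over all genes). Only 1 was higher at both (16.7% and 25%, against 31.8% and 33.8% over all genes).

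The balance of higher and lower calls moved with the scaling of the arrays. Centring each array on the ribosomal protein genes gave 19 higher and 17 lower members at 10 mM and 24 h and 25 higher and 10 lower at 10 mM and 48 h. Centring on the array median gave 10 and 29, and 8 and 27. Quantile normalization gave 19 and 18 at 10 mM and 48 h. For 0.5 mM, centring on the ribosomal protein genes gave 1 higher and 34 lower members at 24 h and 9 and 12 at 48 h. Some ribosomal protein genes were themselves called in each of these comparisons, as counted below. Centring on them therefore also takes their own change off every member. Relative to the main setting, centring on the ribosomal protein genes shifted the median of all tested probesets by 0.18 at 10 mM and 48 h, by 0.14 at 0.5 mM and 48 h and by -0.12 at 0.5 mM and 24 h. Array-median centring shifted it by -0.15 and -0.12 at 10 mM (24 h and 48 h), and quantile normalization by -0.11 at 10 mM and 24 h. Among the members called against water, Eif3j at 10 mM and 48 h was the only one whose sign turned under one of these 3 scalings.

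Single calls changed with the scaling as well. For 10 mM at 24 h, 25 of the 39 calls held under all 3 scalings, and those that ended under at least 1 were of Eef1a1, Eef1d, Eef1g, Eef2, Eif2a, Eif2ak1, Eif2b5, Eif2s3, Eif3b, Eif3f, Eif3i, Eif3j, Eif4b and Eif4ebp1. For 10 mM at 48 h, 18 of 36 held, and those of Eef1a1, Eef1a2, Eef1g, Eif2ak1, Eif2b4, Eif2d, Eif2s3, Eif3a, Eif3c, Eif3d, Eif3f, Eif3h, Eif3j, Eif4e, Eif4ebp1, Eif4g3, Eif5b and Eif6 ended. For 0.5 mM at 24 h, 22 of 29 held, all but Eef1a1, Eif1b, Eif2s3y, Eif4a3, Eif4e, Eif4h and Eif5a2. For 0.5 mM at 48 h, 16 of 29 held, and Eef1akmt1, Eef1b2, Eef1g, Eif1ax, Eif2b1, Eif3d, Eif3i, Eif3m, Eif4a2, Eif4a3, Eif4e, Eif4e2 and Eif6 lost the call. Centring on the ribosomal protein genes ended 12 calls at 10 mM and 48 h and all 13 of those lost at 0.5 mM and 48 h.

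Some calls also ended when 1 of the 10 arrays of the compared groups was left out. At 10 mM and 24 h this befell Eif2s3 and Eif4b in 6 removals each, Eef2 in 5, Eif2a (water replicate 3 or 4, or 10 mM replicate 5), Eif2b5 (water replicate 3 or 5) and Eif2ak1 (water replicate 3). At 10 mM and 48 h it befell Eif3c in 9 removals, Eef1g, Eif2ak1 and Eif3j in 7, Eif5b in 6, Eif2d (water replicate 2 or 5, or 10 mM replicate 2), Eif2s3 (water replicate 3 or 4, or 10 mM replicate 4), Eif3a (water replicate 4 or 10 mM replicate 5) and Eif4g3 (water replicate 1 or 2). At 0.5 mM and 24 h it befell Eef1e1 in 8, Eif2s2 in 6, Eif1b and Eif4e in 5, Eef1d (water replicate 2 or 0.5 mM replicate 3), Eif4h (water replicate 2 or 4) and Eif5a2 (0.5 mM replicate 5). At 0.5 mM and 48 h it befell Eef1akmt1 in 8, Eif2ak3 and Eif2b1 in 7, Eif4g3 in 6, Eif4e2 in 5, Eif6 in 4, Eif3d (0.5 mM replicate 1 or water replicate 4), Eef1b2 (0.5 mM replicate 5) and Eif4a2 (0.5 mM replicate 3).

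Probesets of the same gene often differed. Of the 39 members called with 10 mM at 24 h, 16 had another tested probeset, which was called the same way for 6 and had the opposite sign, uncalled, for 4. At 48 h the 10 mM counts were likewise 16, 6 and 5. With 0.5 mM they were 13, 4 and 7 at 24 h and 7, 4 and 1 at 48 h. The mean over all probesets of a gene ended the calls of Eef2, Eif3a, Eif3j, Eif3l, Eif4e and Eif4g3 (10 mM, 24 h), of Eef1a2, Eef1g, Eif1a, Eif3h, Eif3j, Eif4e, Eif4g1 and Eif5b (10 mM, 48 h), of Eif1a, Eif3a, Eif3l, Eif4e, Eif4g1, Eif4g3, Eif4h and Eif5a2 (0.5 mM, 24 h) and of Eef1g, Eif4e and Eif4g3 (0.5 mM, 48 h).

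Eif1b and Eif1ad had the largest rises after Eif5a2 with 10 mM at 24 h. The list labelled start site selection held both, with Eif1a, Eif1ax and the subunit-joining Eif5b, so its label is loose. With 10 mM, 2 of its 5 genes were higher and 0 lower at 24 h, and 4 were higher and 0 lower at 48 h. With 0.5 mM, 1 was higher and 4 lower at 24 h, and 0 higher and 3 lower at 48 h. After array-median centring the 10 mM counts at 24 h were 2 higher and 2 lower. Eif1b is a close relative of eIF1, which helps the scanning ribosome to tell a start codon from a near match. Its signals were 9026, 8143, 8526, 9158 and 7371 in the 10 mM cultures at 24 h, against 2958, 3281, 1820, 3303 and 2954 in water cultures. All 5 treated cultures lay above all 5 water cultures, with a change of 1.58 ± 0.11 (adjusted p = 2.44e-13). At 48 h Eif1b read 7268, 6964, 7236, 6615 and 7502 with 10 mM and 3292, 3013, 2806, 2751 and 2766 in water, again without overlap (1.28 ± 0.11, adjusted p = 4.7e-11). With 0.5 mM it read 3880, 3757, 3353, 3323 and 3150 at 24 h, a range that touched the water range (0.31 ± 0.11, adjusted p = 0.0417). The low water value of 1820 came from the array with the actin ratio of 2.76, and without the 3 such arrays the 0.5 mM change was 0.16 (adjusted p = 0.121) and the 10 mM change 1.43.

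Eif1ad carries the domain that names eIF1A. Its signals were 15375, 15630, 15826, 15266 and 14349 with 10 mM at 24 h. With 0.5 mM they were 6178, 6879, 7211, 6875 and 6183, against 8053, 8643, 8388, 8483 and 8367 in water. The 3 groups stood apart, with water in the middle: the change was 0.86 ± 0.07 at 10 mM (adjusted p = 1.1e-12) and -0.33 ± 0.07 at 0.5 mM (adjusted p = 0.000346). The same order held at 48 h, with 14528, 13106, 14472, 13570 and 12956 at 10 mM (0.61 ± 0.07), 6730, 5506, 6342, 5406 and 4933 at 0.5 mM (-0.64 ± 0.07, adjusted p = 1.57e-08) and 8444, 9232, 8620, 9225 and 9274 in water.

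Eif1a and Eif1ax encode eIF1A, which keeps the ribosome open to scanning together with eIF1. Eif1a fell to 6481, 6808, 6779, 6049 and 7457 with 0.5 mM at 24 h, against 9679, 11689, 10525, 10126 and 10244 in water, with no overlap (-0.64 ± 0.07, adjusted p = 4.11e-08). At 48 h it was lower with 0.5 mM (-0.35 ± 0.07) and higher with 10 mM (0.36 ± 0.07, adjusted p = 7.45e-05). Its 3 other probesets were called in neither 10 mM comparison nor at 0.5 mM and 24 h, and were lower with 0.5 mM at 48 h (-0.45, -1.30 and -1.18). Without the arrays of high actin ratio these were -0.18 (adjusted p = 0.268), -0.60 and -0.71, and the last of the 3 was called at 24 h too (-0.53). The averaged probesets gave no call for 0.5 mM at 24 h (-0.17) or 10 mM at 48 h (0.04). Eif1ax changed little, at -0.21 ± 0.06 and -0.24 ± 0.06 with 0.5 mM (24 h and 48 h). Eif5b, a GTPase that joins the ribosomal subunits, had signals of 2582, 2632, 2179, 2958 and 2798 with 0.5 mM at 24 h, against 4321, 3883, 4762, 3407 and 3643 in water. No treated culture reached the water range, and the change was -0.60 ± 0.14 (adjusted p = 0.00236). A second probeset of Eif5b was as low (-0.68, adjusted p = 0.000913) and the other one was not (-0.09). With 10 mM the probesets went apart: the brightest was called at 48 h (0.36 ± 0.14, adjusted p = 0.0394), while the second was lower at 24 h (-0.71, adjusted p = 0.000135). The call at 48 h ended when any of 6 arrays was left out (water replicates 1 and 3 or 10 mM replicates 1, 3, 4 and 5).

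**Figure D2:**
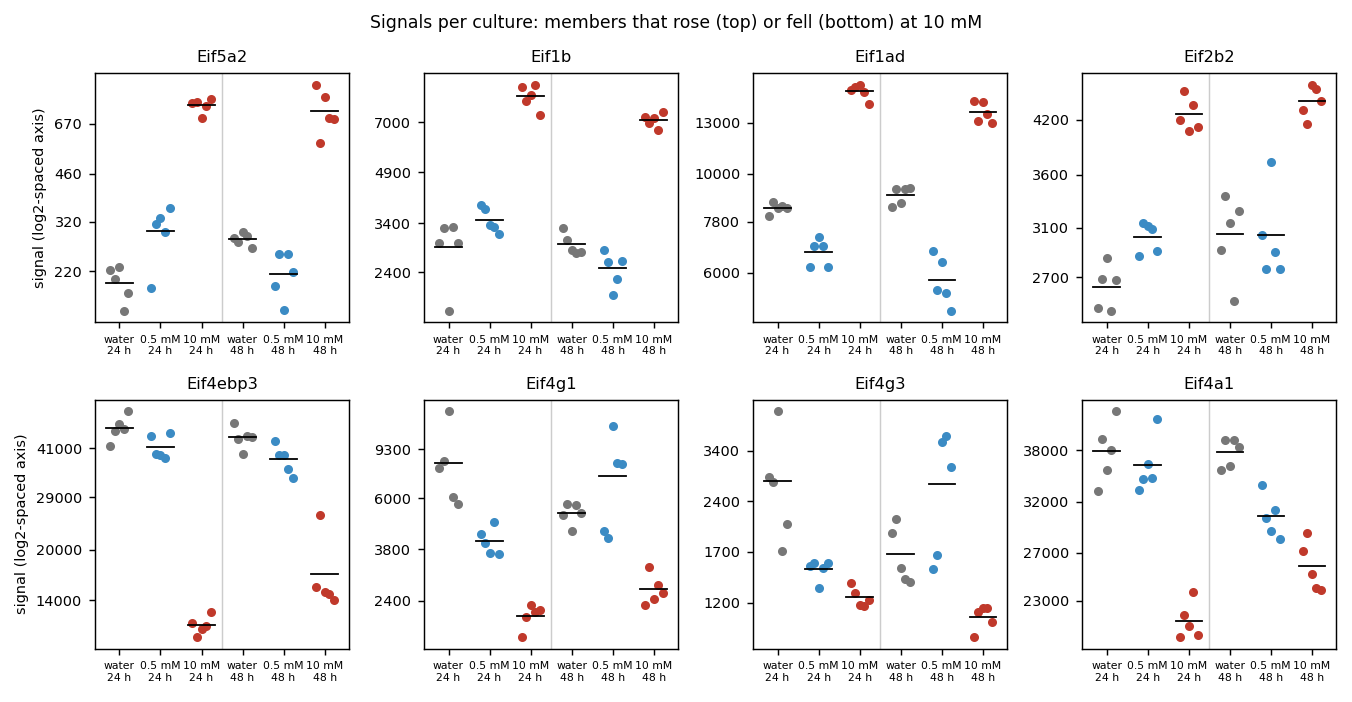
Signal in each of the 5 cultures of the 6 groups for members that rose (upper panels: Eif5a2, Eif1b, Eif1ad, Eif2b2) and fell (lower panels: Eif4ebp3, Eif4g1, Eif4g3, Eif4a1) with 10 mM valproate, with the group mean as a black line. Eif5a2 lay between 699 and 810 with 10 mM at 24 h, against 163 to 227 in water, and Eif4ebp3 between 10794 and 12888, against 41794 to 53462.

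Genes of eIF2 moved unlike each other. Of 6 genes for eIF2 subunits and other carriers of the initiator tRNA, 3 were higher and 2 lower with 10 mM at 24 h, and 2 were higher and 1 lower at 48 h. With 0.5 mM, 1 was higher and 3 lower at 24 h, and 0 were higher and 2 lower at 48 h. After centring on the ribosomal protein genes the 10 mM counts at 48 h were 3 higher and 0 lower, and after array-median centring 1 and 3. Eif2s1 encodes the alpha subunit, the target of the stress kinases. Its signals were 17184, 17357, 17463, 18020 and 15839 with 10 mM at 24 h. With 0.5 mM they were 11499, 10920, 10768, 10794 and 10599, against 13030, 13481, 12953, 13303 and 12861 in water. Water lay between the doses without overlap, at a change of 0.39 ± 0.06 for 10 mM (adjusted p = 1.31e-06) and -0.27 ± 0.06 for 0.5 mM (adjusted p = 0.00113). At 48 h the changes were 0.38 ± 0.06 and -0.40 ± 0.06. The beta subunit gene Eif2s2 stood at 0.02 ± 0.07 with 10 mM at 24 h (adjusted p = 0.849) and at -0.39 ± 0.07 with 0.5 mM at 48 h (adjusted p = 0.0002).

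The gamma subunit binds the tRNA itself and has an X-linked and a Y-linked gene. The X-linked Eif2s3 was higher with 10 mM by 0.20 ± 0.08 at 24 h and 0.23 ± 0.08 at 48 h. Its Y-linked copy Eif2s3y read 13981, 13182, 13597, 13769 and 14594 with 10 mM at 24 h, against 11737, 8635, 9669, 9596 and 9814 in water, without overlap (0.49 ± 0.08, adjusted p = 9.69e-06). At 48 h it stood at 0.18 ± 0.08 (adjusted p = 0.0856). Probesets of such near copies may share signal, and a further probeset that names both genes was left out. Eif2d, which can deliver the initiator tRNA without eIF2, read 5093, 4741, 4778, 5041 and 5124 with 10 mM at 24 h, against 6619, 7005, 9743, 6446 and 6388 in water (-0.53 ± 0.09, adjusted p = 1.99e-05), and fell as much with 0.5 mM (-0.52 ± 0.09, adjusted p = 0.000131).

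The exchange factor eIF2B has 5 subunits, and its genes split in the main setting. With 10 mM at 24 h 1 was higher and 2 were lower, and at 48 h 1 was higher and 1 lower. After centring on the ribosomal protein genes, 3 were higher and 1 lower at 24 h, and 3 were higher and 0 lower at 48 h. Eif2b2, the beta subunit, read 4192, 4551, 4075, 4379 and 4119 with 10 mM at 24 h and 2479, 2686, 2850, 2456 and 2677 in water. The treated cultures lay above water at both times, with changes of 0.69 ± 0.08 (adjusted p = 5.88e-09) and 0.54 ± 0.08 (adjusted p = 8.89e-07). Eif2b4, the delta subunit, fell by 0.34 ± 0.09 on the log2 scale at 24 h and by 0.34 ± 0.09 at 48 h. Eif2b5, the catalytic epsilon subunit, read 1700, 1876, 1704, 1671 and 1779 with 10 mM at 24 h, against 1999, 1823, 2465, 1873 and 2524 in water. These ranges overlapped, and the call (-0.28 ± 0.10, adjusted p = 0.021) ended without water replicate 3 or 5. Eif2b3, the gamma subunit, was lower with 0.5 mM instead. It read 3673, 2957, 3171, 3141 and 2969 with 0.5 mM at 24 h, against 4636, 4565, 4986, 4837 and 4084 in water (-0.54 ± 0.09, adjusted p = 3.39e-05), and was lower at 48 h too (-0.52 ± 0.09). Its 10 mM changes were 0.18 ± 0.09 (adjusted p = 0.0905) and 0.17 ± 0.09 (adjusted p = 0.115).

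The 4 eIF2 kinases changed little with 10 mM, where 1 was lower and 0 were higher at each time. After centring on the ribosomal protein genes, 0 were lower and 0 higher at 24 h, and 0 were lower and 2 higher at 48 h. Eif2ak1, the kinase that senses heme, read 3582, 3248, 3490, 3532 and 3611 with 10 mM at 24 h, against 4270, 3612, 5253, 3842 and 3831 in water (-0.24 ± 0.08, adjusted p = 0.0159). The treated cultures lay just below the lowest water culture, and without water replicate 3, the array of high actin ratio, the change was -0.15 (adjusted p = 0.0623). The 48 h change was -0.20 ± 0.08 (adjusted p = 0.0478), a call that ended in 7 of the 10 removals of an array of the 2 groups. With 0.5 mM at 48 h Eif2ak1 was higher (0.38 ± 0.08, adjusted p = 0.000865), and so was Eif2ak3, the kinase of endoplasmic reticulum stress (0.25 ± 0.09, adjusted p = 0.0427). Without the 3 arrays of high actin ratio the values were 0.30 (adjusted p = 0.00397) for Eif2ak1 and 0.18 (adjusted p = 0.218) for Eif2ak3. Eif2ak2, the kinase of double-stranded RNA, stood between 0.03 and 0.23 in the 4 comparisons with water, and Eif2ak4, the amino acid sensor, between -0.39 and 0.43, none of them called.

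The mRNAs of eIF3, the large complex that organises the small subunit, moved in both directions within one assembly. Of 11 genes, 3 were higher and 6 lower with 10 mM at 24 h and 2 were higher and 5 lower at 48 h. With 0.5 mM, 0 were higher and 6 lower at 24 h, and 0 were higher and 4 lower at 48 h. After centring on the ribosomal protein genes the 10 mM counts at 48 h turned to 4 higher and 1 lower, and after array-median centring they were 0 and 5. Eif3a, the largest core subunit, read 7800, 7961, 7493, 7926 and 7191 with 10 mM at 24 h. With 0.5 mM it read 8850, 9975, 9484, 10305 and 10218, against 14558, 16153, 12860, 13299 and 13403 in water. All treated cultures lay below water, at -0.87 ± 0.07 for 10 mM (adjusted p = 2.76e-12) and -0.52 ± 0.07 for 0.5 mM (adjusted p = 1.11e-06). A second, dimmer probeset was not called with 10 mM at 24 h (0.32, adjusted p = 0.268), and the mean of both probesets stood at -0.27 (adjusted p = 0.0588).

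Eif3c, another core subunit, read 8048, 9410, 8998, 9186 and 8458 with 10 mM at 24 h, against 13885, 15616, 16547, 12788 and 14053 in water, without overlap (-0.72 ± 0.09, adjusted p = 4.1e-08). With 0.5 mM it read 8704, 9270, 8198, 9349 and 9049 at 24 h (-0.70 ± 0.09, adjusted p = 6.62e-07). Both doses lay wholly below water, and the difference of 10 mM from 0.5 mM was -0.02 ± 0.09 (adjusted p = 0.899). The second Eif3c probeset was called at neither dose at 24 h (-0.25 with 10 mM and 0.03 with 0.5 mM), and the means of both were -0.49 and -0.34, still called. Eif3b, the subunit that carries an RNA recognition motif and a propeller fold, read 3049, 3626, 3395, 4280 and 3458 with 0.5 mM at 24 h, against 6495, 7957, 8760, 6143 and 6696 in water (-1.01 ± 0.14, adjusted p = 3.01e-06). With 10 mM it fell less, by 0.42 ± 0.14 on the log2 scale (adjusted p = 0.0132), or by 0.27 with the actin covariate. Eif3d, which can itself bind the cap of some mRNAs, and Eif3l were also lower with 10 mM at 24 h (-0.40 ± 0.06 and -0.32 ± 0.06). The second Eif3l probeset stood at 0.11 (adjusted p = 0.589).

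The 3 subunits that rose with 10 mM at 24 h were Eif3h (0.40 ± 0.06, adjusted p = 8.96e-07), Eif3i (0.35 ± 0.07, adjusted p = 3.75e-05) and Eif3f (0.28 ± 0.08, adjusted p = 0.00218). Eif3h read 26940, 30648, 28500, 30851 and 27379 with 10 mM, against 20592, 21858, 21380, 20888 and 24340 in water, without overlap. Eif3f and Eif3h share a fold with deubiquitinases and sit together in the outer part of the complex. At 48 h Eif3f (0.29 ± 0.08) and Eif3h (0.21 ± 0.06) were higher again. Eif3k and Eif3m were not called with 10 mM.

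**Figure D3:**
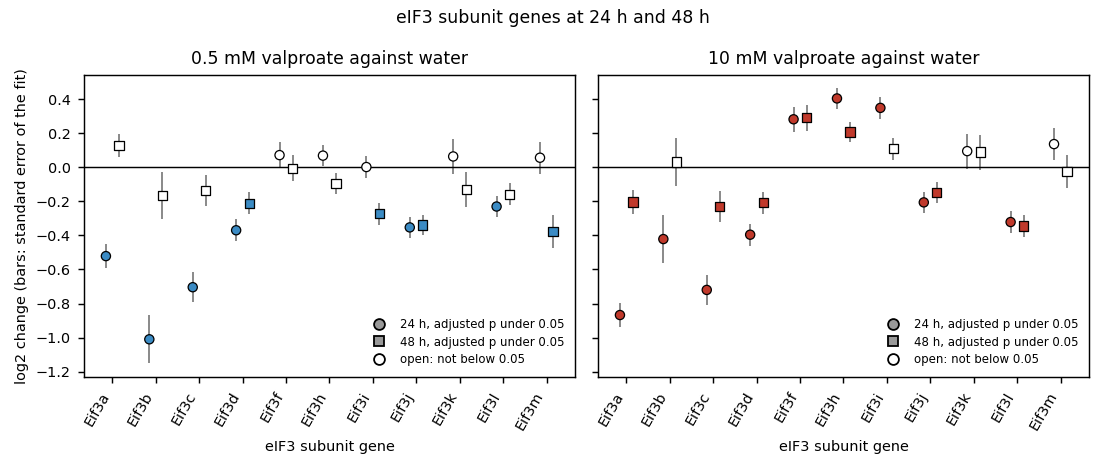
Log2 change ± SE against water of the 11 eIF3 subunit genes with 0.5 mM and 10 mM valproate at 24 h and 48 h, filled where the adjusted p was under 0.05. With 10 mM at 24 h Eif3a (-0.87) and Eif3c (-0.72) lie lowest and Eif3h (0.40) highest, and at 48 h the 10 mM values run from -0.34 (Eif3l) to 0.29 (Eif3f).

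Most eIF4 genes were lower at 10 mM. Of 10 genes for cap binding, scaffold and helicase, 1 was higher and 7 were lower with 10 mM at 24 h and likewise 1 and 7 at 48 h, where 25% (24 h) and 22.3% (48 h) of all genes were lower. With 0.5 mM, 2 were higher and 4 lower at each time. The number of lower genes at 10 mM was between 6 and 8 under every scaling tried. Eif4g1 encodes the main scaffold of eIF4F. Its signals were 1728, 2071, 2316, 2169 and 2205 with 10 mM at 24 h. With 0.5 mM they were 4373, 4005, 3662, 4862 and 3651, against 7878, 8396, 13140, 6064 and 5690 in water. The 3 groups did not overlap, and the changes were -1.90 ± 0.20 for 10 mM (adjusted p = 1.24e-09) and -0.94 ± 0.20 for 0.5 mM (adjusted p = 0.000776). At 48 h it read 2303, 3235, 2444, 2764 and 2563 with 10 mM and 5147, 5696, 4482, 5649 and 5255 in water, again apart (-0.98 ± 0.20, adjusted p = 0.000141). With 0.5 mM at 48 h it read 4462, 4215, 11466, 8262 and 8148, a range that spanned the water values (0.38 ± 0.20, adjusted p = 0.186).

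The brightest Eif4g1 values in water at 24 h and in 0.5 mM at 48 h came from arrays of high actin ratio. Without those 3 arrays the change was -1.72 for 10 mM at 24 h and -0.76 for 0.5 mM at 24 h, both called, and 0.03 for 0.5 mM at 48 h. Its other 3 probesets were dimmer, and averaging all 4 gave -1.23 for 10 mM at 24 h (adjusted p = 0.000117), -0.50 for 10 mM at 48 h (adjusted p = 0.111) and -0.59 for 0.5 mM at 24 h (adjusted p = 0.0863). Eif4g3, a second scaffold, read 1371, 1278, 1184, 1176 and 1223 with 10 mM at 24 h, against 2834, 2737, 4466, 1711 and 2058 in water, without overlap (-1.06 ± 0.21, adjusted p = 6.65e-05). Without the 3 arrays the value was -0.87, and averaged with its second probeset, which was too dim to be tested, it was -0.36 (adjusted p = 0.148). Eif4g2, a relative that lacks the eIF4E site and serves cap-independent initiation, fell by 0.38 ± 0.07 on the log2 scale with 10 mM at 24 h (adjusted p = 1.15e-05) and stood at -0.10 ± 0.07 at 48 h (adjusted p = 0.256).

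**Figure D4:**
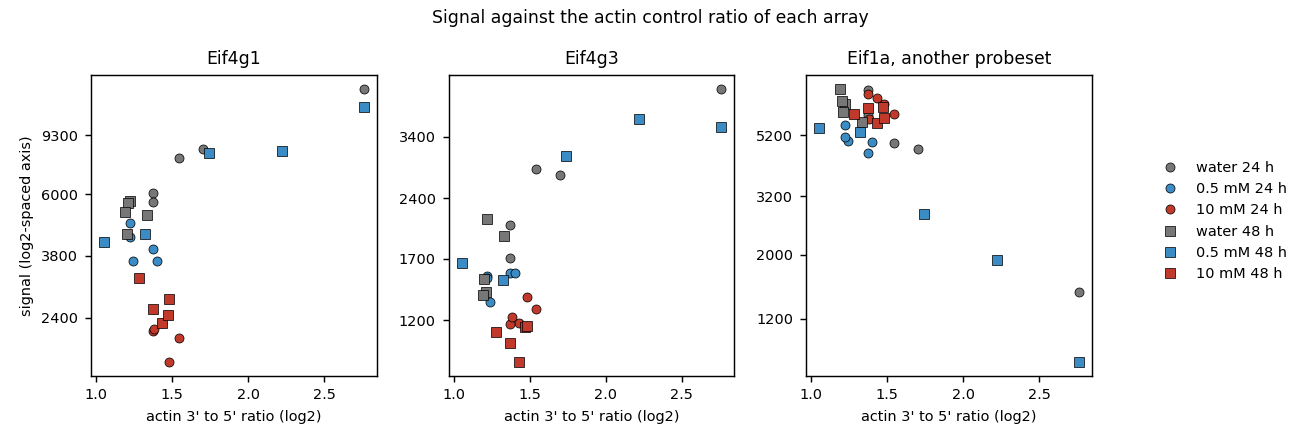
Signal of Eif4g1, Eif4g3 and another probeset of Eif1a (vertical axes) on each of the 30 arrays against the log2 ratio of 3' over 5' actin signal (horizontal axis), coloured by group. On the 3 arrays above 2 the Eif4g1 signal runs from 8262 to 13140, while the Eif1a probeset is low there, at 1485 on the water array at 24 h.

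The helicase genes Eif4a1 and Eif4a2 both fell with 10 mM. Eif4a1 read 20383, 21921, 21168, 23676 and 20507 with 10 mM at 24 h, against 33164, 39483, 35560, 38067 and 43349 in water, without overlap (-0.81 ± 0.07, adjusted p = 1.96e-11). By 48 h the change was -0.55 ± 0.07 (adjusted p = 8.75e-08). Eif4a2 read 16581, 17359, 18212, 18382 and 15622 with 10 mM at 24 h and 25520, 26172, 19109, 26809 and 28433 in water. The change was -0.54 ± 0.08 at 24 h (adjusted p = 2.53e-06) and -0.66 ± 0.08 at 48 h (adjusted p = 1.02e-07), and a second probeset fell as well (-0.75 and -0.97). Its fall at 24 h was -1.16 without water replicate 3, where it read 688, and lost the call in 9 of the 10 removals of 1 array, that one excepted. Eif4b, which stimulates the helicase, fell more at 48 h, where it read 3621, 3603, 3556, 3582 and 3948 with 10 mM and 6078, 6300, 6507, 6332 and 6190 in water. The groups were wide apart (-0.78 ± 0.11, adjusted p = 3.66e-07), while at 24 h the change was -0.26 ± 0.11 (adjusted p = 0.0435), or -0.11 (adjusted p = 0.15) without water replicate 3, the array of high actin ratio. The second Eif4b probeset gave -0.51 at 24 h and -0.01 at 48 h. By contrast Eif4a3, the helicase of the exon junction complex and no part of eIF4F, was higher with 10 mM (0.49 ± 0.06 and 0.35 ± 0.06) and lower with 0.5 mM (-0.23 ± 0.06 and -0.26 ± 0.06) at 24 h and 48 h. The calls at 0.5 mM ended after quantile normalization at 24 h (-0.15) and after centring on the ribosomal protein genes at 48 h (-0.12).

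Among the cap-binding genes, Eif4e was the one that rose at 10 mM. It read 23881, 24354, 24654, 24150 and 24308 with 10 mM at 24 h, against 17016, 17916, 14295, 18765 and 17718 in water, a gap wider than either range (0.51 ± 0.07, adjusted p = 2.29e-07). The change at 48 h was 0.29 ± 0.07 (adjusted p = 0.00101), and 0.5 mM gave 0.19 ± 0.07 at 24 h (adjusted p = 0.0444) and -0.27 ± 0.07 at 48 h (adjusted p = 0.00405). Its 2 other probesets were called in none of these comparisons, and the mean of the 3 gave 0.23 for 10 mM at 24 h (adjusted p = 0.243). Without the arrays of high actin ratio the 0.5 mM change at 24 h was 0.13 (adjusted p = 0.0791). Eif4e2, a cap-binding relative that represses translation, fell with 10 mM (-0.45 ± 0.06 at 24 h, adjusted p = 3.52e-07, and -0.36 ± 0.06 at 48 h). Eif4e3, an atypical cap-binding relative, rose with 0.5 mM. It read 2136, 2171, 2668, 2296 and 2137 with 0.5 mM at 24 h, against 1447, 992, 1046, 1158 and 1164 in water (0.97 ± 0.13, adjusted p = 8.74e-07). At 48 h Eif4e3 was higher with 0.5 mM (0.63 ± 0.13, adjusted p = 0.000372) and lower with 10 mM (-0.55 ± 0.13, adjusted p = 0.000525), and its second probeset gave 0.95 and -0.83.

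Of the 4 genes for 4E-binding proteins, 2 were lower and 0 higher with 10 mM at each time, and 1 was lower with 0.5 mM at each time. Eif4ebp3 had the largest fall of all 60 members at 10 mM and 24 h. Its signals were 11947, 10794, 11437, 11664 and 12888 with 10 mM at 24 h, against 41794, 46397, 48584, 47143 and 53462 in water, without overlap (-2.01 ± 0.11, adjusted p = 3.2e-16). At 48 h they were 15373, 25591, 14893, 14637 and 14083 with 10 mM and 49236, 43900, 39360, 44876 and 44372 in water (-1.43 ± 0.11, adjusted p = 1.62e-12), 1 treated culture being well above the others. With 0.5 mM it stood at -0.20 ± 0.11 (adjusted p = 0.186) and -0.22 ± 0.11 (adjusted p = 0.145). Eif4ebp1, the family member best known as an mTOR substrate, read 15534, 16927, 15973, 16957 and 15590 with 10 mM at 24 h, against 17982, 18509, 17174, 18895 and 19989 in water. The small shift did not overlap (-0.19 ± 0.05, adjusted p = 0.00279), and the largest change was with 0.5 mM at 48 h (-0.51 ± 0.05, adjusted p = 1.43e-08). After quantile normalization the 10 mM call at 24 h ended, and after centring on the ribosomal protein genes the one at 48 h. Eif4ebp2 and Eif4enif1, which carries eIF4E into the nucleus, were not called at either dose.

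Both eIF5A genes changed with 10 mM, in opposite directions. Eif5a2, the rarer form, read 786, 788, 699, 768 and 810 with 10 mM at 24 h, against 222, 208, 227, 163 and 186 in water. At 48 h it read 902, 580, 818, 698 and 694, against 283, 274, 297, 288 and 263. No treated culture came near the water range, and the changes of 1.86 ± 0.16 (adjusted p = 1.37e-11) and 1.33 ± 0.16 (adjusted p = 2.53e-08) were the largest rises of the set at each time. The water signals of Eif5a2 lay below the lowest array median, 349, and signal near background limits how well the size of its rise is known. Eif5a, the common form, read 14913, 16252, 14898, 15889 and 15514 with 10 mM at 24 h and 18751, 22334, 23447, 21514 and 21739 in water (-0.47 ± 0.06, adjusted p = 1.01e-07), and was as low at 48 h (-0.53 ± 0.06, adjusted p = 1.95e-08). With 0.5 mM at 24 h Eif5a2 read 194, 315, 329, 295 and 354, which overlapped water (0.51 ± 0.16, adjusted p = 0.0176), and the call ended without 0.5 mM replicate 5.

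In the main setting elongation factor genes moved in both directions. The list labelled eEF1 held 6 genes, Eef1e1 among them. With 10 mM, 2 were higher and 1 lower at 24 h, and 1 was higher and 2 lower at 48 h. With 0.5 mM, 1 was higher and 2 lower at 24 h, and 0 were higher and 4 lower at 48 h. The lower genes with 0.5 mM included Eef1e1 at both times. After centring on the ribosomal protein genes the 10 mM counts at 48 h were 3 higher and 0 lower, and after array-median centring 0 and 3. Eef1a1, the main eEF1A gene, read 51073, 54375, 54338, 53352 and 52894 with 10 mM at 24 h, against 56451, 58487, 66349, 59851 and 62309 in water, close but apart (-0.19 ± 0.05, adjusted p = 0.00309). It fell further at 48 h (-0.31 ± 0.05, adjusted p = 1.19e-05) and was higher with 0.5 mM at 24 h (0.25 ± 0.05, adjusted p = 0.00061). All 3 calls ended after centring on the ribosomal protein genes. Eef1a2, the form of muscle and neurons, had low signals of 226 to 533 with 10 mM and 367 to 578 in water at 24 h (-0.39 ± 0.22, adjusted p = 0.149). By 48 h Eef1a2 was lower with 10 mM (-0.71 ± 0.22, adjusted p = 0.00871). The exchange subunits Eef1g and Eef1d were higher with 10 mM at 24 h (0.31 ± 0.08 and 0.24 ± 0.07), and Eef1b2 stood at 0.04 ± 0.08 (adjusted p = 0.679).

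Eef1e1, a scaffold protein of the aminoacyl-tRNA synthetase complex despite its name, fell with 0.5 mM at 48 h. It read 9382, 8598, 5493, 6713 and 6873 with 0.5 mM, against 12949, 14129, 12037, 13676 and 13718 in water (-0.87 ± 0.11, adjusted p = 1.17e-06). The lower 3 of these cultures were those with the highest actin ratios of the group, and without the 3 arrays above 2 the change was -0.69 (adjusted p = 1.18e-07). Eef2 read 19428, 23468, 22978, 22619 and 20918 with 10 mM at 24 h and 22786, 26772, 28308, 23230 and 25949 in water, with overlap (-0.21 ± 0.08, adjusted p = 0.0289). That call ended when water replicate 2, 3 or 5 or 10 mM replicate 1 or 5 was left out, and a second Eef2 probeset stood at 0.20 (adjusted p = 0.696). Its kinase Eef2k, which slows elongation by phosphorylating eEF2, had low and scattered signals, of 332 to 412 with 10 mM and 48 to 481 in water at 24 h (0.40 ± 0.35, adjusted p = 0.365). Eif6, which keeps the large subunit from joining too early, was not called at 24 h with 10 mM (-0.17 ± 0.08, adjusted p = 0.0686) and was lower at 48 h (-0.24 ± 0.08, adjusted p = 0.0153). The 48 h call ended after quantile normalization (-0.16) and after centring on the ribosomal protein genes (-0.05).

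Of the 3 methyltransferase genes, whose products modify lysines of eEF1A, 1 was higher and 1 lower with 10 mM at each time. Eef1akmt1 read 1019, 1022, 854, 928 and 951 with 10 mM at 24 h, against 1725, 1517, 1707, 1661 and 1526 in water, without overlap (-0.76 ± 0.10, adjusted p = 4.68e-08), and fell less at 48 h (-0.47 ± 0.10, adjusted p = 0.000119). Eef1akmt2 rose, with 3315, 2882, 4361, 3988 and 3672 at 10 mM and 48 h, against 1418, 1939, 2414, 1878 and 2261 in water (0.88 ± 0.16, adjusted p = 2.47e-05). At 24 h its change was 0.62 ± 0.16 (adjusted p = 0.00133). Eef1akmt4 fell with 0.5 mM, to 812, 748, 711, 973 and 923 at 24 h, against 1368, 1668, 1618, 1311 and 1384 in water (-0.81 ± 0.14, adjusted p = 5.22e-05), and at 48 h (-0.64 ± 0.14, adjusted p = 0.000803).

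The doses were then compared with each other, since both had been set against the same water cultures. At 24 h 25 of 60 members were higher with 10 mM than with 0.5 mM and 13 were lower (32.9% and 26.4% of all genes). At 48 h 27 were higher and 17 lower (30% and 23.8% of all genes). Without overlap between the 5 and 5 cultures there were 23 higher and 13 lower at 24 h (29% and 21.9% of all genes) and 21 and 9 at 48 h (22.9% and 17.3%). The balance moved with the scaling, to 32 higher and 8 lower at 24 h after centring on ribosomal protein genes and to 20 and 18 at 24 h and 17 and 20 at 48 h after centring on the array median. Eif1ad differed by 1.20 ± 0.07 at 24 h (adjusted p = 5.23e-16) and by 1.25 ± 0.07 at 48 h (adjusted p = 4.11e-16).

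Eif2s1 and Eif4a3 were called higher with 10 mM and lower with 0.5 mM at both times. Eif2s1 was 0.65 ± 0.06 higher with 10 mM than with 0.5 mM at 24 h (adjusted p = 3.77e-11) and 0.78 ± 0.06 higher at 48 h (adjusted p = 1e-12). Eif4a3 differed by 0.72 ± 0.06 (adjusted p = 2.45e-11) and 0.61 ± 0.06 (adjusted p = 1.08e-09). Eif2b3 differed by 0.72 ± 0.09 (adjusted p = 2.81e-08) and 0.69 ± 0.09 (adjusted p = 6.8e-08), with 0.5 mM below water and 10 mM not called. Eif4e3 ran the other way, at -0.73 ± 0.13 (adjusted p = 1.07e-05) and -1.18 ± 0.13 (adjusted p = 1.96e-09), although with 10 mM at 24 h it stood at 0.24 over water, uncalled. At 48 h it read 861, 1060, 1012, 1121 and 749 with 10 mM, against 2297, 2440, 1713, 2171 and 2366 with 0.5 mM, without overlap.

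**Figure D5:**
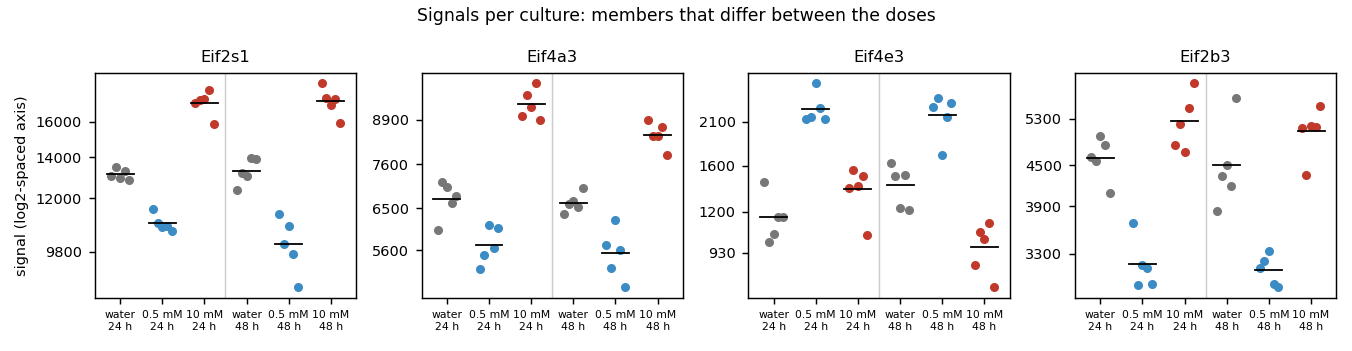
Signal in each culture of Eif2s1, Eif4a3, Eif4e3 and Eif2b3 in water, 0.5 mM and 10 mM valproate at 24 h and 48 h, with the group mean as a black line. Eif2s1 lies between 10599 and 11499 with 0.5 mM at 24 h, between 15839 and 18020 with 10 mM and between 12861 and 13481 in water.

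The effect of each dose was compared between the times by an interaction. For 10 mM, 6 members had a higher change at 48 h than at 24 h and 2 a lower one (6.63% and 6.2% of all genes). Eif4g1 (0.93 ± 0.28, adjusted p = 0.0297), Eif3a (0.66 ± 0.10, adjusted p = 1.78e-05), Eif4ebp3 (0.59 ± 0.15, adjusted p = 0.00971) and Eif3c (0.49 ± 0.13, adjusted p = 0.00977) had fallen at 24 h and were nearer to water at 48 h. Of these, Eif3a alone was also called lower in water at 48 h than at 24 h (-0.33), and that fall enters its value. Eif1a differed by 0.48 ± 0.10 (adjusted p = 0.00121). Eif4e3 (-0.80 ± 0.18, adjusted p = 0.00275) and Eif4b (-0.52 ± 0.15, adjusted p = 0.0231) differed in the other direction. The remaining member was Eif4g2 (0.28), whose call ended in 13 of 20 removals of 1 array. The mean over the probesets gave no call for Eif1a (-0.15), Eif3a (-0.05), Eif3c (0.14), Eif4b (-0.01), Eif4g1 (0.73) and Eif4g2 (0.22), which left Eif4ebp3 and Eif4e3. The call of Eif4g1 also ended in 4 removals, among them that of water replicate 3 at 24 h, and the call of Eif4b without water replicate 2 at 24 h. The second Eif4b probeset was called in the opposite direction (0.50).

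For 0.5 mM, 11 members had a higher change at 48 h than at 24 h and 13 a lower one (12% and 9.69% of all genes). These counts moved with RNA quality and scaling: with the actin ratio as a covariate they were 1 and 1, without the 3 arrays of high ratio 4 and 6, after centring on ribosomal protein genes 20 and 0 and after array-median centring 11 and 4. Eif4g3 had the largest value, 1.40 ± 0.29 (adjusted p = 0.00171), with 1510, 1663, 3597, 3754 and 3049 in the 0.5 mM cultures at 48 h, against 1936, 2127, 1521, 1410 and 1387 in water. The higher 3 of those 0.5 mM cultures were again the ones with the highest actin ratios. With the covariate the Eif4g3 interaction was 0.56 (adjusted p = 0.139) and that of Eif4g1 0.51 (adjusted p = 0.16), against 1.32 ± 0.28 (adjusted p = 0.00195) without it. Eif5a2 (-0.89 ± 0.22), Eif1b (-0.56 ± 0.16) and Eef1e1 (-0.54 ± 0.16) led the other direction, and without the 3 arrays Eif1b (-0.29, adjusted p = 0.107) and Eef1e1 (-0.22, adjusted p = 0.192) were not called. The mean over the probesets gave no call for Eif4g3 (0.42), Eif4g1 (0.86) and Eif5a2 (-0.56), and after centring on the ribosomal protein genes Eif5a2 stood at -0.62 (adjusted p = 0.0721).

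In water alone, 3 members were higher at 48 h than at 24 h and 4 were lower (5.11% and 4.96% of all genes). Eef1akmt1 (0.34 ± 0.10, adjusted p = 0.0218), Eif3i (0.22 ± 0.07, adjusted p = 0.0367) and Eif4ebp1 (0.21 ± 0.05, adjusted p = 0.0101) were higher. Eif4g3 (-0.66 ± 0.21, adjusted p = 0.0464), Eif3b (-0.50 ± 0.14, adjusted p = 0.025), Eif3a (-0.33 ± 0.07, adjusted p = 0.00234) and Eif4g2 (-0.23 ± 0.07, adjusted p = 0.0261) were lower. Leaving out 1 array ended the call of Eif3i in 7 of 10 removals, of Eif4g3 in 6, of Eif3b in 4, of Eef1akmt1 in 3 and of Eif4g2 in 2. With the actin covariate the call of Eif3a alone held, and its mean over both probesets turned in sign, to 0.067. Most members thus had no call between the water cultures of the 2 times.

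Other genes of translation were counted beside the factors, and their counts stand against 31.1% of all genes higher and 25% lower with 10 mM at 24 h, 27.6% and 22.3% with 10 mM at 48 h, 12.7% and 16.1% with 0.5 mM at 24 h and 11.9% and 14.1% with 0.5 mM at 48 h. Of 39 cytosolic ribosomal proteins tested, 1 was higher and 6 lower with 10 mM at 24 h and 0 were higher and 22 lower at 48 h, and 0.5 mM gave 9 and 0 at 24 h and 0 and 12 at 48 h. Of 29 aminoacyl-tRNA synthetases, 5 were higher and 17 lower with 10 mM at 24 h and 5 and 13 at 48 h, against 0 and 17, and 2 and 9, with 0.5 mM. Among 11 genes of termination, recycling and poly(A) binding, 6 were higher and 3 lower with 10 mM at 24 h. They were led by Hbs1l, which rescues stalled ribosomes (0.90 ± 0.11), Abce1, which splits them after termination (-0.72 ± 0.10), and Pabpc4, a poly(A)-binding protein (-0.64 ± 0.08). Of 8 mitochondrial factors 2 were higher and 3 lower, with Mtif2, the mitochondrial initiation factor, at -0.995 ± 0.17 (adjusted p = 7.82e-06).

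Genes that control the factors were counted against the same shares. Of 16 genes of mTOR and MAP kinase control, 7 were higher and 6 lower with 10 mM at 24 h, led by Rps6ka3, a ribosomal S6 kinase (1.24 ± 0.19, adjusted p = 1.71e-06), Rps6kb1, the S6 kinase of the mTOR pathway (0.88 ± 0.19), and Rictor, a subunit of mTORC2 (0.83 ± 0.12). In the list of eIF2 phosphatases and genes that answer eIF2 phosphorylation, 4 of 10 were higher and 3 lower. Atf3 (2.35 ± 0.09, adjusted p = 5.04e-19) and Ddit3 (1.98 ± 0.09, adjusted p = 9.01e-18), both transcription factors of the stress response, and Ppp1r15a, a regulatory subunit of the eIF2 phosphatase (0.64 ± 0.10), were higher with 10 mM at 24 h. At 0.5 mM and 24 h 1 gene of the list was higher and 7 were lower. Of 8 genes that make hypusine on eIF5A or diphthamide on eEF2, 1 was higher and 3 were lower with 10 mM at 24 h.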

How the data were processed

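Each array's deposited column holds linear signal intensities, 1 for every probeset, made by the authors with MAS5, per the submitters' processing notes. No MAS5 version is given in the sources used here. With 2% trimmed at each end, array means were 1500.5 to 1500.7, so the arrays had been scaled to 1 level before deposit, and a shift of most genes one way would be hidden. Of 31099 probesets, 57 were controls and 20826 had 1 gene symbol in the platform table, 436 several and 9780 none. A further 5 probesets that match the name pattern carry several symbols and were left out, among them those of Eif3e and Eif5. Analysis used log2(signal + 16), a scale that shrinks changes of dim probesets, and covered the 21729 probesets whose mean reached the 30th percentile. A gene was represented by its brightest probeset; 24 members had more than 1, and these often differed. Signals of different genes are not set against each other.

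All 30 arrays entered 1 model in limma 3.58.1 (R 4.3.3, eBayes with trend, 24 residual degrees of freedom), tested on simulated data first. Tests were two-sided and adjusted by Benjamini-Hochberg over all tested probesets. Named members were the called ones with the largest changes (up to 8 per direction for a dose against water, 4 for interactions and time) and a set of central factors; for other lists, at most 3 called genes with the largest changes at 10 mM and 24 h. Other members given with values were chosen after their values were seen. The members and lists were chosen with earlier results of these data known. Alternatives were pseudocounts of 1 and 64, 3 scalings, no filter or the 50th percentile, averaged probesets, array weights and no trend. Others were a fit of the compared groups alone, a log2 change of at least 1 and sets of title numbers as a block. The actin ratio was also used as a covariate. The 3 arrays above a ratio of 2 were left out, and each array in turn. Figures used Python 3.11.15 and matplotlib 3.10.9.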

Additional observations from a re-analysis of the deposited data

Results flagged for a closer look

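Among the named members, 252 groups of 5 cultures were checked for 1 culture far from the other 4, and 16 had one. Chance gives about 1 in 20. With 10 mM at 24 h, Eif4e3 (1038) and Eif6 (11345) were low on replicate 5 and Eif4ebp2 (2947) was high on replicate 1. With 10 mM at 48 h, Eif4ebp3 was high on replicate 2 (25591), and on replicate 5 Eif1a was low (10727) and Eif4b high (3948). With 0.5 mM, Eif4g3 was low on replicate 3 at 24 h (1328) and Eif2s2 high on replicate 1 at 48 h (30824). In water at 24 h, replicate 3, the array with an actin ratio of 2.76, stood apart for Eif1b (1820), Eif4a2 (19109), Eif4b (7875) and Eef1e1 (7721), and replicate 5 for Eef2k (48). In water at 48 h, Eif4a2 (24802) and Eif4g2 (23185) were low on replicate 3 and Eif3i (10640) was high on replicate 2.

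The effect of a dose differed between the times by the interaction test for 32 results. For 10 mM, the change at 48 h minus that at 24 h was 0.93 for Eif4g1, 0.66 for Eif3a, 0.59 for Eif4ebp3, 0.49 for Eif3c, 0.48 for Eif1a and 0.28 for Eif4g2. It was -0.80 for Eif4e3 and -0.52 for Eif4b. For 0.5 mM it was above 0 for Eif4g3 (1.40), Eif4g1 (1.32), Eif3b (0.84), Eif2ak4 (0.81), Eif5b (0.74), Eif3a (0.65), Eif3c (0.57), Eif2ak3 (0.40), Eif2ak1 (0.36), Eif4g2 (0.36) and Eif1a (0.29). It was below 0 for Eif5a2 (-0.89), Eif1b (-0.56), Eef1e1 (-0.54), Eif4e (-0.46), Eef1akmt1 (-0.46), Eif3m (-0.43), Eif4a2 (-0.39), Eif2s3y (-0.38), Eif4ebp1 (-0.31), Eif1ad (-0.30), Eif3i (-0.27), Eif5a (-0.25) and Eef1a1 (-0.23). With the actin ratio as a covariate 1 member was called higher and 1 lower in the 0.5 mM interaction, and of the 24 above the call of Eif3a alone held. For 10 mM, 7 of the called members had another tested probeset, called the same way for 2 and the opposite way for 1 (Eif4b, 0.50). For 0.5 mM, 11 had another tested probeset, called the same way for 3 and the opposite way for 2 (Eif1a and Eif3c, the latter at -0.89).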

How the results depend on the processing

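The main fit was not paired, because the labels do not say which cultures of different groups belong together. The running numbers of the titles pass through all 6 groups in repeated complete sets. With these sets as a block, no count of called members moved by over 1.5 times. Over 138 results, 1777 of 2058 values under the alternatives kept their direction and call, 230 lost the call, 19 gained one and 32 turned in sign. The lost calls include those that ended only because a log2 change of at least 1 was asked for. Of 1520 values with 1 array left out, 1408 kept both.

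Centring on the ribosomal protein genes gave 25 higher and 10 lower members at 10 mM and 48 h, 1 higher at 0.5 mM and 24 h, 9 higher and 12 lower at 0.5 mM and 48 h, 1 lower for the 10 mM interaction, 20 higher and 0 lower for the 0.5 mM interaction, 8 lower for 10 mM against 0.5 mM at 24 h, and 0 higher and 8 lower for water at 48 h against 24 h. Array-median centring gave 8 higher at 10 mM and 48 h, 4 lower for the 0.5 mM interaction, 17 higher for 10 mM against 0.5 mM at 48 h and 0 higher for water over time. Quantile normalization gave 6 lower for the 10 mM interaction. With the actin ratio as a covariate there were 2 higher at 0.5 mM and 48 h, 1 higher and 1 lower for the 0.5 mM interaction and 1 lower for water over time. Without the 3 arrays of high ratio these were 2, 4 and 6, with 6 higher for water over time. Array weights gave 5 lower for the 10 mM interaction and 5 higher for water over time. Only the compared groups gave 3 higher at 0.5 mM and 24 h, 2 higher at 0.5 mM and 48 h, 5 lower for each interaction and 2 lower for water over time. Fitting without the trend gave 2 lower for water over time. Averaged probesets gave 1 higher for the 10 mM interaction, 3 higher for the 0.5 mM interaction and 1 lower for water over time.

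A log2 change of at least 1 left 2 higher and 3 lower at 10 mM and 24 h, 2 and 1 at 10 mM and 48 h, 0 and 1 at 0.5 mM and 24 h, 0 and 0 at 0.5 mM and 48 h, 0 and 0 for the 10 mM interaction, 2 and 0 for the 0.5 mM interaction, 3 and 1 (24 h) and 4 and 4 (48 h) for 10 mM against 0.5 mM and 0 and 0 for water over time. Leaving out 1 array gave 14 to 16 higher and 19 to 24 lower at 10 mM and 24 h, 11 to 16 and 17 to 21 at 10 mM and 48 h, 4 to 6 and 20 to 23 at 0.5 mM and 24 h, 2 to 6 and 20 to 25 at 0.5 mM and 48 h, 4 to 7 and 1 to 3 for the 10 mM interaction, 8 to 13 and 9 to 15 for the 0.5 mM interaction, and 1 to 3 and 1 to 5 for water over time. For 10 mM against 0.5 mM the ranges were 22 to 26 and 12 to 13 at 24 h and 27 to 29 and 14 to 17 at 48 h.

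Of the 20 results of named members that turned in sign under another setting, 2 had been called, both for Eif3a with averaged probesets, the 10 mM interaction (-0.051) and water over time (0.067). The other 18 were not called. With the actin covariate they were, for 0.5 mM at 48 h, Eef2 (-0.074), Eif4ebp2 (-0.047) and Eif4g1 (-0.078), and Eif4a2 for 0.5 mM at 24 h (-0.031). Without the 3 arrays Eef2 stood at -0.060 for 0.5 mM at 48 h. After ribosomal centring, values for 10 mM at 48 h were Eef2 0.062, Eif2ak4 0.038 and Eif2b5 0.13. For 0.5 mM they were Eef2k -0.067, Eif2ak1 -0.10, Eif2ak2 -0.092 and Eif4a2 -0.013 at 24 h, and Eef2k 0.12 and Eif2b5 0.077 at 48 h. After array-median centring Eif2ak1 (-0.029) and Eif2ak2 (-0.017) turned for 0.5 mM at 24 h and Eif2ak3 (-0.15) and Eif2ak4 (-0.10) for 10 mM at 24 h. Quantile normalization gave Eef1a1 -0.030 (0.5 mM, 48 h), Eef2 0.028 (10 mM, 48 h), Eef2k -0.15 (0.5 mM, 24 h), and Eif2ak3 -0.065 and Eif2ak4 -0.074 (10 mM, 24 h). Averaged probesets gave Eef1a2 0.20 (10 mM, 24 h), Eef2 0.12 (0.5 mM, 24 h), Eif2b5 0.071 (10 mM) and 0.075 (0.5 mM) and Eif3a -0.31 (0.5 mM) at 48 h. The weakly measured Eef2k gave 0.013 with array weights (0.5 mM, 48 h) and -0.015 with a pseudocount of 64 (0.5 mM, 24 h).

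Removing 1 array turned the sign of 9 uncalled results of named members. Eef2k ran from -0.14 to 0.60 (10 mM, 24 h), -0.49 to 0.25 (0.5 mM, 24 h) and -0.16 to 0.18 (0.5 mM, 48 h). For 0.5 mM at 24 h Eif2ak1 ran from -0.029 to 0.11 and Eif2ak2 from -0.032 to 0.098. For 10 mM at 24 h Eif2ak3 ran from -0.030 to 0.054 and Eif2ak4 from -0.045 to 0.14. Eif2b5 ran from -0.094 to 0.014 (10 mM) and -0.14 to 0.0011 (0.5 mM) at 48 h. The cause of these changes was not tested. Signal near background limits Eef2k, Eef1a2 and Eif5a2.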
